A study of Homo sapiens with 82 samples.

Results

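Krüppel-like factors (KLFs) are transcription factors that bind GC-rich and CACCC-containing DNA through zinc fingers at their carboxyl end. KLF2, KLF4, KLF5 and KLF6 are best known as activators, KLF3 represses genes through the corepressor CTBP, and KLF9, KLF10, KLF11 and KLF13 recruit the SIN3A corepressor. In the colon, KLF4 is known for the differentiated surface epithelium and KLF5 for the dividing cells of the crypt, while KLF15 is known for amino acid and glucose metabolism. Several of these genes respond within hours to serum, growth factors, hormones or the circadian clock.

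The 10 genes KLF2, KLF3, KLF4, KLF5, KLF6, KLF9, KLF10, KLF11, KLF13 and KLF15 were described by their symbols in the gene count tables, as 10 of the 51838 genes listed. RNA-seq had been performed on HT29 cells, an established human colorectal cancer line, after 24 or 48 h with 10 μM GW3965 or T0901317, both agonists of the liver X receptors (LXRs), with 10 μM rosiglitazone, an agonist of PPARG, or with the carrier DMSO. All 8 groups had 4 libraries, and all cells had been moved to phenol red-free medium with charcoal/dextran-treated serum before treatment, so that DMSO cells shared this change of medium. The study used a single line, and the methods give each treatment as done in quadruplicate without saying how the cultures were set up, so p-values measure only the spread between these libraries.

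Promoter windows of 8 of the 10 members were matched by symbol in RefSeq (GRCh38.p14), each running from 250 bases before to 50 bases after an annotated start, with 2 windows for KLF5 and for KLF11. KLF3 and KLF10 were not matched. The windows of KLF4, KLF6 and KLF15 are shown because KLF4 and KLF6 fell with LXR agonists at 48 h while KLF15 fell with rosiglitazone, and because each holds the E-box CACGTG. They are written 5′ to 3′ on the strand of the gene, and capitals mark the E-box and each GC box GGGCGG on either strand. The window of KLF4 is chr9:107489720-107490019 (minus strand), that of KLF6 chr10:3785160-3785459 (minus strand) and that of KLF15 chr3:126357359-126357658 (minus strand).
KLF4: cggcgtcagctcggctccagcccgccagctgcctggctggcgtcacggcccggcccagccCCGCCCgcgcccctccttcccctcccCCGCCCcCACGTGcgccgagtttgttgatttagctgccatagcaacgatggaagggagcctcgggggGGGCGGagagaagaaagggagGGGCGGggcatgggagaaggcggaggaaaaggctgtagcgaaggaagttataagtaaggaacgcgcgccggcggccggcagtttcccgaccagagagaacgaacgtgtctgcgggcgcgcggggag
KLF6: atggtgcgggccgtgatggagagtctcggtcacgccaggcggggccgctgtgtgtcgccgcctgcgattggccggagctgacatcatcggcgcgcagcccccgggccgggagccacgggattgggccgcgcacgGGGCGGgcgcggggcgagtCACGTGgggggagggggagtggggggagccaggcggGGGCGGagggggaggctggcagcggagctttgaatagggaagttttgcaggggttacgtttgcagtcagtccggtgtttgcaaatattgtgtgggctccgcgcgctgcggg
KLF15: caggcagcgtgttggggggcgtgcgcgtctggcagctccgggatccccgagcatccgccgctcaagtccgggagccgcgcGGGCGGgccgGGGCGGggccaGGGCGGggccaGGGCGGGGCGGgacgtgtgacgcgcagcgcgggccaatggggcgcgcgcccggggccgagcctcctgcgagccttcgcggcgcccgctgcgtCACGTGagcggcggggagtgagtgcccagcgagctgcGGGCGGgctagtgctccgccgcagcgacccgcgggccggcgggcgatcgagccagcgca
The E-box starts 157 bases before the annotated start in KLF4, 97 bases before it in KLF6 and 46 bases before it in KLF15. It was also found in 1 window of KLF11, so that 4 of 10 member windows hold it, beside 7.26% of all 35116 windows of that length. The GC box was found in 8 of the 10 windows and in 45% of all windows, with 7 copies in 1 window of KLF11, 6 in KLF15, 6 in KLF2 and 4 in KLF4. CACCC was found in 4 member windows and 59.9% of all windows, and the cyclic AMP element TGACGTCA in 1 window of KLF11 and 1.85% of all windows. Neither the AP-1 site TGANTCA, present in 7.71% of all windows, nor the nuclear receptor half-site AGGTCA, present in 13.8%, occurred in a member window. The 6 motifs were searched on both strands, and none of them contains another. GC content was 69% in the window of KLF4, 70.7% in KLF6, 80.3% in KLF15 and 32.7% in KLF9, beside a median of 58.7% over all windows. These matches describe the letters of the windows and were not tied to binding.

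Libraries held 21044798 to 51332656 counts. All 10 members passed the filter on low counts at both time points, within 21781 genes tested at 24 h and 22470 at 48 h. Of 10 colorectal epithelium markers, 10 had a mean CPM (counts scaled to a common library size) of at least 1 in 7 groups and 9 did so with rosiglitazone at 48 h, and their summed level was 14730 to 22380 CPM. The 3 endothelial markers measured (CDH5, VWF and KDR) summed to at most 0.586 CPM in any library, and the 4 fibroblast markers to 3.75 to 10 CPM. The 4 leukocyte markers, of which only CD68 reached 1 CPM, summed to 6.61 to 8.11 CPM with DMSO at 48 h, the lowest group. Their sum was 11.6 to 16.7 CPM with the LXR agonists and 10.1 to 11.25 CPM with rosiglitazone at 48 h. With DMSO at 24 h it was 9.65 to 11.2 CPM. The part of these markers in the results was not tested.

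Most members rose between 24 and 48 h in DMSO cells and in rosiglitazone-treated cells, and few did so with either LXR agonist. At 24 h, KLF4 was the member with the highest fold change with either LXR agonist that passed the test, and it was higher than in DMSO cells with each of the 3 agonists. At 48 h, most members were lower with GW3965 and T0901317 than with DMSO, led by KLF10, while KLF4, KLF6, KLF10 and KLF11 were higher with rosiglitazone, of which KLF6 and KLF10 did not pass when counts were scaled by library size alone. KLF15 was the 1 member that was lower with rosiglitazone at both time points, joined by KLF3 with that scaling. A member was said to have risen or fallen where the edgeR quasi-likelihood test gave a Benjamini-Hochberg adjusted p under 0.01 over all genes, and fold changes are given as log2 values with their standard error (SE).

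**Figure D1:**
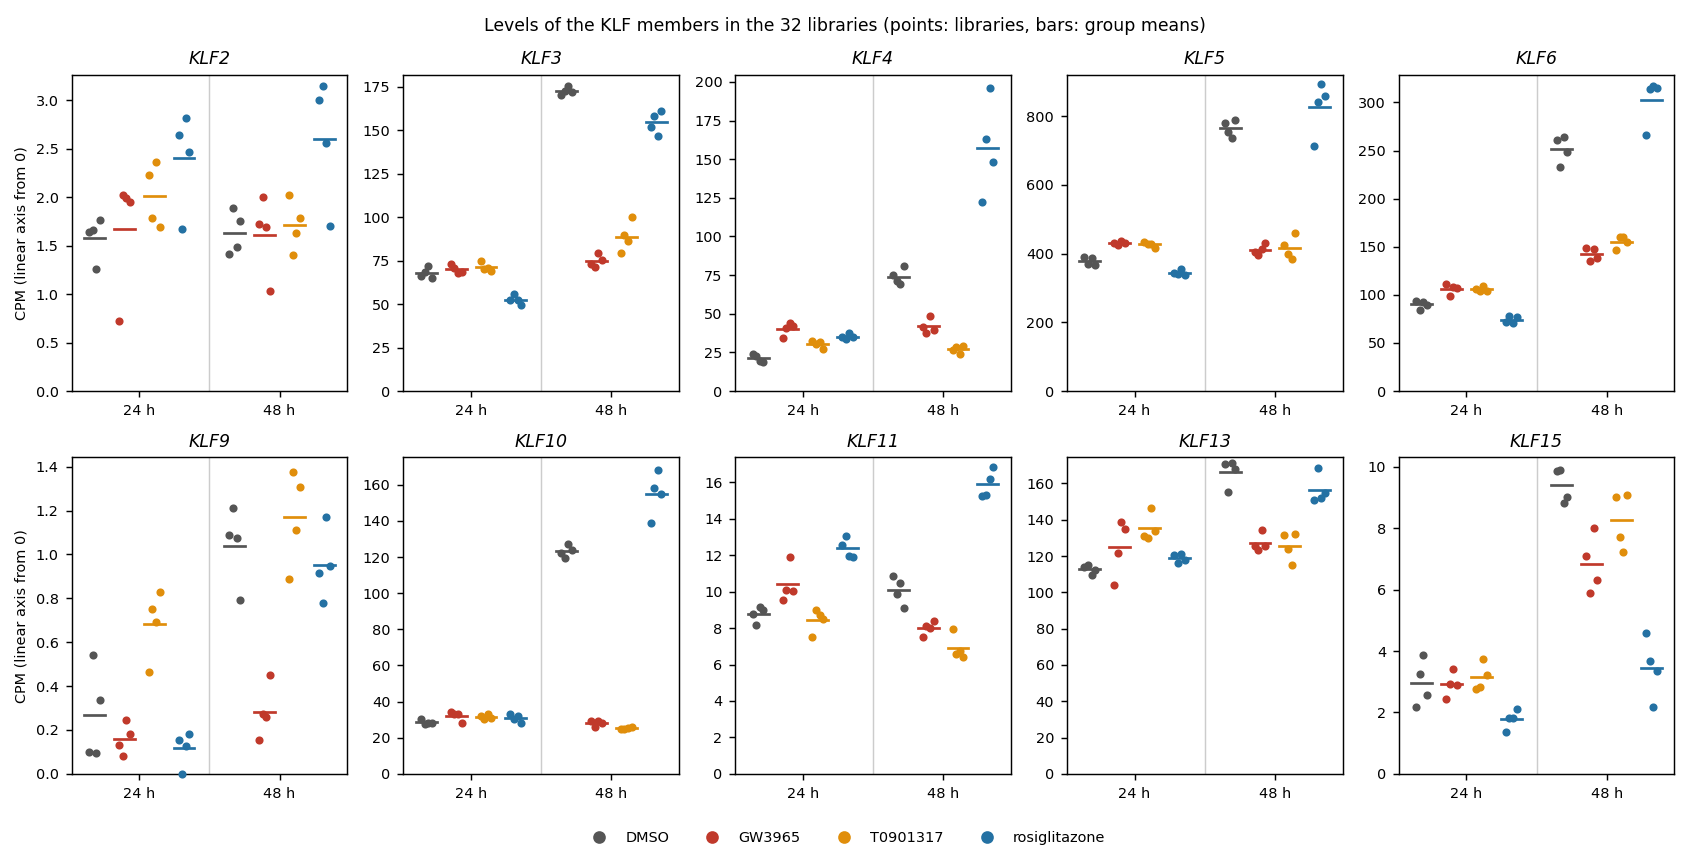
Level of each member in CPM (linear axes from 0) in the 32 libraries, with 4 points and a mean bar for each treatment at 24 h (left of the grey line) and 48 h (right). The 4 DMSO libraries of KLF10 lie between 27.9 and 30.5 CPM at 24 h and between 119.7 and 127 CPM at 48 h, while the 8 libraries of both LXR agonists at 48 h lie between 24.7 and 29.4 CPM.

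At 24 h, GW3965 raised 2 of the 10 members, KLF4 and KLF6, beside 1.86% of all genes that were higher, and lowered none, beside 0.868% of all genes. By DESeq2 on the same genes 3 members were higher (KLF5 was added) and 0 lower, and 5 members had an unadjusted p under 0.05. The call of KLF6 was lost, and the count fell to 1, without any 1 of 7 of the 8 libraries compared, and with library size scaling, no low-count filter, the replicate number as a block or only both groups in the fit. The median log2 fold change of the members was 0.16, beside -0.01 for all genes. T0901317 raised 1 member, KLF4, beside 1.33% of all genes, and lowered none, beside 0.119%. DESeq2 called 3 members higher with T0901317 (KLF4, KLF5 and KLF6), and 6 members had an unadjusted p under 0.05. The 6 include KLF9, which the low-count filter kept through these T0901317 libraries. The share of all genes at this unadjusted level was not counted, so the 5 and the 6 cannot be set against it. Rosiglitazone raised KLF4 and KLF11, beside 5.81% of all genes that were higher, and lowered KLF3, KLF6 and KLF15, beside 6.52% that were lower. KLF5 missed the threshold with rosiglitazone in edgeR (-0.14, adjusted p = 0.0256). It passed as lower by DESeq2 (-0.13, adjusted p = 0.00107) and in edgeR with library size scaling (-0.24, adjusted p = 0.00145). All 3 comparisons share the 4 DMSO libraries. No member that passed at 24 h changed by as much as 2-fold.

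At 48 h, GW3965 lowered 8 members (KLF3, KLF4, KLF5, KLF6, KLF9, KLF10, KLF11 and KLF13), beside 17.5% of all genes that were lower, and raised none, beside 16.1% that were higher. Their median log2 fold change over the 10 members was -0.83, beside 0 for all genes, and in 9 members each GW3965 library lay below each DMSO library. The share of all genes whose libraries were separated in this way was not counted, so the 9 cannot be set against it. T0901317 lowered 7 members (KLF3, KLF4, KLF5, KLF6, KLF10, KLF11 and KLF13), beside 16.1% of all genes, and raised none, beside 14%, with a median over the 10 members of -0.62. DESeq2 likewise called 0 members higher with either LXR agonist at 48 h, and an unadjusted p under 0.05 was reached by 9 members with GW3965 and 7 with T0901317. The share of all genes at that unadjusted level was not counted either. Rosiglitazone raised 4 members, beside 12.3% of all genes, and lowered 1, beside 13.1%. With scaling by library size alone in place of TMM (the trimmed mean scaling of edgeR), the median of all genes with rosiglitazone moved by -0.18 on the log2 scale, and the split was then 2 higher (KLF4 and KLF11) and 3 lower (KLF3, KLF13 and KLF15). The 48 h comparisons again share their DMSO libraries. Fold changes of at least 2 were reached by KLF3, KLF9 and KLF10 with GW3965, by KLF4 and KLF10 with T0901317, and by KLF4 and KLF15 with rosiglitazone.

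**Figure D2:**
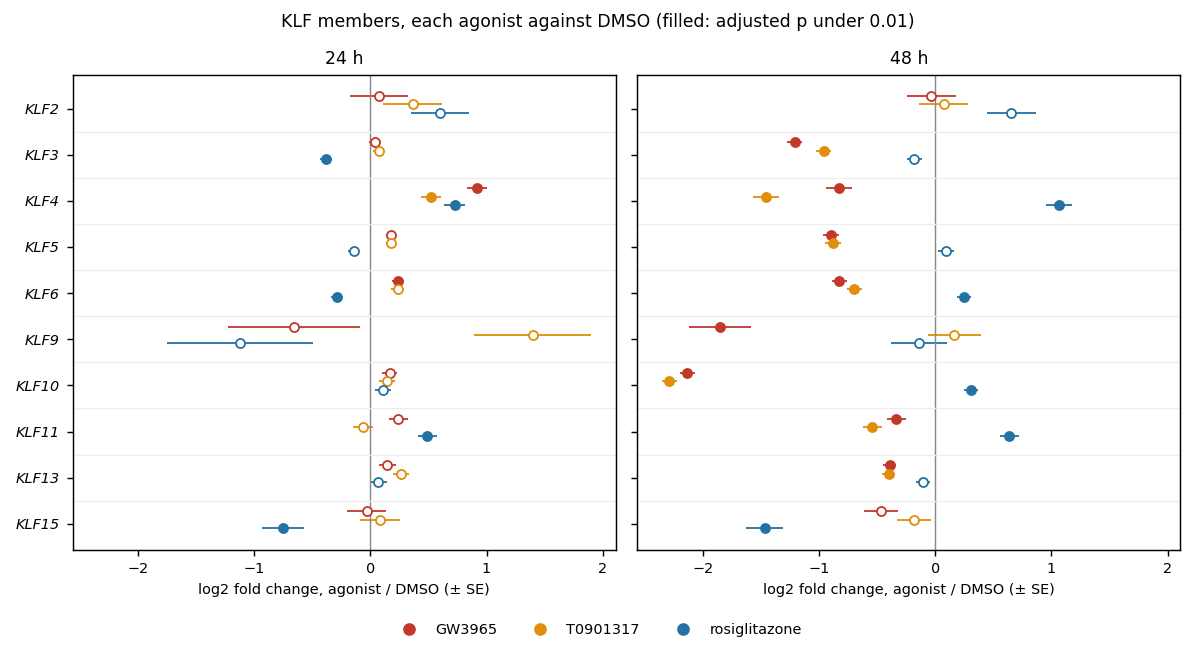
Log2 fold change of each member against DMSO at 24 h (left) and 48 h (right) with GW3965 (red), T0901317 (orange) and rosiglitazone (blue). Bars are ± SE of the fit and filled points passed an adjusted p of 0.01. At 48 h the points of KLF10 lie at -2.13 with GW3965, -2.29 with T0901317 and 0.31 with rosiglitazone.

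KLF10, also known as TIEG1, is induced early by TGF-beta and represses genes. In DMSO cells its level was 30.5, 27.9, 28.2 and 28.1 CPM at 24 h and 123, 119.7, 127 and 124 CPM at 48 h. With GW3965 it was 34.2, 33.4, 33.03 and 28.3 CPM at 24 h and 29.3, 25.9, 29.4 and 28.1 CPM at 48 h. The 48 h libraries with GW3965 thus overlapped the DMSO libraries of 24 h and lay far below those of 48 h. With T0901317 the level was 31.95, 30.5, 33.4 and 30.7 CPM at 24 h and 25.1, 24.7, 25.2 and 26.1 CPM at 48 h. With rosiglitazone it was 33.3, 30.4, 32.3 and 28.04 CPM at 24 h and 139, 158, 168 and 155 CPM at 48 h, above all DMSO libraries of that time point. The 3 agonists did not change KLF10 detectably at 24 h, where the log2 fold changes were 0.17, 0.15 and 0.11 with adjusted p of at least 0.212 in edgeR. At 48 h it fell with GW3965, by a log2 fold change of -2.13 (SE 0.06, adjusted p = 4.52e-15), and with T0901317, by -2.29 (SE 0.06, adjusted p = 2.05e-15). By the fit, the level with DMSO at 48 h was 4.39-fold that with GW3965 and 4.88-fold that with T0901317. The log2 fold change with rosiglitazone was 0.31 (SE 0.06, adjusted p = 0.000367), which became 0.13 (adjusted p = 0.0721) with library size scaling.

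KLF11, a relative of KLF10 that also recruits SIN3A and is known from pancreatic beta cells, was the member with the least change in DMSO cells after KLF2. Its level with DMSO was 8.76, 8.18, 9.17 and 9.01 CPM at 24 h and 10.8, 9.89, 10.5 and 9.09 CPM at 48 h. With rosiglitazone it was 12.6, 13.1, 11.95 and 11.9 CPM at 24 h and 15.3, 15.3, 16.2 and 16.9 CPM at 48 h, above all DMSO libraries at both times. KLF11 rose with rosiglitazone at 24 h by a log2 fold change of 0.49 (SE 0.08, adjusted p = 0.000235) and at 48 h by 0.64 (SE 0.08, adjusted p = 4.7e-06). It fell at 48 h with T0901317, to 7.97, 6.55, 6.74 and 6.395 CPM, with a log2 fold change of -0.54 (SE 0.08, adjusted p = 3.02e-05). With GW3965 at 48 h the level was 7.53, 8.103, 7.999 and 8.402 CPM and the log2 fold change -0.34 (SE 0.08, adjusted p = 0.00262). The last call was lost without replicate 1 or 3 of DMSO (adjusted p = 0.0129 and 0.0108) or replicate 1 of GW3965 (adjusted p = 0.0118) in edgeR.

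KLF9, a target of glucocorticoid and thyroid hormone receptors, was measured by few reads, 0 to 66 a library. With DMSO it was 0.0981, 0.543, 0.09501 and 0.337 CPM at 24 h and 1.09, 1.21, 1.07 and 0.791 CPM at 48 h. With GW3965 at 48 h the level was 0.155, 0.271, 0.257 and 0.448 CPM, below each DMSO library, and KLF9 fell by a log2 fold change of -1.85 (SE 0.27, adjusted p = 1.29e-05). With T0901317 at 48 h the level was 0.888, 1.37, 1.11 and 1.31 CPM, which overlapped DMSO, with a log2 fold change of 0.17 (SE 0.23, adjusted p = 0.595). The direct comparison of both LXR agonists at 48 h gave -2.02 (SE 0.26, adjusted p = 6.75e-05) for GW3965 against T0901317, the largest difference between them among the members. At 24 h the T0901317 libraries, at 0.466, 0.752, 0.691 and 0.8301 CPM, were all above the GW3965 libraries, at 0.131, 0.0821, 0.247 and 0.181 CPM. At 24 h KLF9 was kept by the low-count filter through its T0901317 libraries, which held 16 to 27 reads beside 3 to 10 with GW3965, so this difference is given as a description. With rosiglitazone at 24 h 1 library held 0 reads of KLF9, which allows up to 0.0866 CPM (3 reads, counting error only). The other rosiglitazone libraries held 4 to 6 reads at 24 h and all 4 held 24 to 43 at 48 h.

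KLF13, which recruits SIN3A and is known from lymphocytes, varied least over the groups, with a range of 0.56 in mean log2 CPM. Its mean level with DMSO was 113 ± 2.38 CPM at 24 h and 166 ± 7.57 CPM at 48 h (SD, n = 4). At 48 h it was 127 ± 4.85 CPM with GW3965 and 126 ± 7.903 CPM with T0901317 (SD, n = 4), each library below each DMSO library. The log2 fold changes were -0.39 (SE 0.06, adjusted p = 1.85e-05) and -0.40 (SE 0.06, adjusted p = 1.63e-05) in edgeR. With rosiglitazone at 48 h the log2 fold change was -0.11 (SE 0.06, adjusted p = 0.168).

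KLF3, a repressor that works through CTBP, rose in DMSO cells between 24 and 48 h and was lower with both LXR agonists at 48 h. With DMSO its level was 66.1, 68.5, 71.95 and 65.1 CPM at 24 h and 170.3, 172, 176 and 172 CPM at 48 h. At 48 h it was 73.1, 71.5, 79.5 and 75.4 CPM with GW3965 and 79.3, 89.8, 86.01 and 99.98 CPM with T0901317. It was 152, 158, 147 and 161 CPM with rosiglitazone. Thus all LXR agonist libraries at 48 h lay below all others of that time point. KLF3 fell with GW3965 by a log2 fold change of -1.21 (SE 0.06, adjusted p = 3.28e-11) and with T0901317 by -0.96 (SE 0.06, adjusted p = 7.57e-10). Rosiglitazone lowered it at 24 h, to 52.5, 55.8, 52.1 and 49.2 CPM, by a log2 fold change of -0.38 (SE 0.05, adjusted p = 2.66e-05). At 48 h the value with rosiglitazone was -0.18 (SE 0.06, adjusted p = 0.0321), which passed with library size scaling (-0.36, adjusted p = 0.000274).

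KLF4, which is linked to cell cycle exit and goblet cell formation in the colon, had the widest range of mean log2 CPM over the 8 groups after KLF9, 2.88. With DMSO it was 23.8, 22.7, 19.2 and 18.99 CPM at 24 h and 74.9, 70.9, 69.4 and 80.8 CPM at 48 h. At 24 h each agonist library exceeded each DMSO library, with 34.1, 40.6, 43.97 and 41.8 CPM for GW3965, 32.2, 30.2, 31.7 and 27.4 CPM for T0901317 and 35.1, 33.4, 37.3 and 35.1 CPM for rosiglitazone. The log2 fold changes at 24 h were 0.92 (SE 0.09, adjusted p = 6.82e-07) with GW3965, 0.52 (SE 0.09, adjusted p = 0.00126) with T0901317 and 0.73 (SE 0.09, adjusted p = 5.53e-06) with rosiglitazone. At 48 h the LXR agonists were on the other side of DMSO, with 41.6, 37.7, 48.5 and 39.5 CPM for GW3965 and 26.4, 28.2, 23.9 and 29.2 CPM for T0901317. Rosiglitazone libraries stayed above DMSO, with 122, 163, 196 and 148 CPM. KLF4 fell at 48 h with GW3965 by a log2 fold change of -0.83 (SE 0.11, adjusted p = 5.77e-06) and with T0901317 by -1.46 (SE 0.11, adjusted p = 6.3e-09), and rose with rosiglitazone by 1.07 (SE 0.11, adjusted p = 3.68e-07). GW3965 against T0901317 differed by 0.63 (SE 0.11, adjusted p = 0.000874) at 48 h, so the fall was larger with T0901317. At 24 h this difference was 0.40 (SE 0.09, adjusted p = 0.0198), and it passed by DESeq2, with library size scaling, with no low-count filter and without replicate 1 of GW3965.

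KLF5, a driver of crypt cell proliferation, had mean levels with DMSO of 379 ± 11.2 CPM at 24 h and 764 ± 24.1 CPM at 48 h (SD, n = 4). At 48 h they were 779, 753, 737 and 789 CPM in the 4 DMSO libraries, 406, 396, 412 and 431 CPM with GW3965 and 424, 399.9, 383 and 459.5 CPM with T0901317. No LXR agonist library came near the lowest DMSO library. KLF5 fell with GW3965 by a log2 fold change of -0.90 (SE 0.07, adjusted p = 4.83e-09) and with T0901317 by -0.88 (SE 0.07, adjusted p = 7.33e-09). With rosiglitazone at 48 h it was 712, 842, 893 and 858 CPM, and the log2 fold change of 0.09 (SE 0.07, adjusted p = 0.3198) did not pass and had the other sign with library size scaling (-0.09, adjusted p = 0.236).

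KLF6, named a tumour suppressor in several epithelia and induced by injury, was 93.6, 84.03, 92.8 and 89.5 CPM with DMSO at 24 h and 261, 233, 264 and 248 CPM at 48 h. At 48 h it was 149, 135, 148 and 139 CPM with GW3965, 147, 159.6, 159.7 and 155 CPM with T0901317 and 266, 314, 317 and 315 CPM with rosiglitazone. LXR agonist libraries thus lay below and rosiglitazone libraries above all DMSO libraries of 48 h. KLF6 fell with GW3965 by a log2 fold change of -0.83 (SE 0.06, adjusted p = 5.07e-09) and with T0901317 by -0.70 (SE 0.06, adjusted p = 4.84e-08). It rose with rosiglitazone by 0.25 (SE 0.06, adjusted p = 0.00434). That last call was lost with library size scaling (0.07, adjusted p = 0.429), with DMSO and rosiglitazone libraries alone in the fit (adjusted p = 0.017), and without replicate 2 or 4 of DMSO or replicate 2, 3 or 4 of rosiglitazone (adjusted p = 0.0114 to 0.0183).

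At 24 h the libraries of KLF6 lay on the other side of DMSO with each agonist. It was 112, 98.8, 108 and 107 CPM with GW3965, 106, 104, 109 and 104 CPM with T0901317 and 71.7, 77.5, 70.4 and 76.8 CPM with rosiglitazone, so both LXR agonists lay above and rosiglitazone below DMSO. The log2 fold change was -0.29 (SE 0.05, adjusted p = 0.000676) with rosiglitazone, 0.24 (SE 0.05, adjusted p = 0.00994) with GW3965 and 0.24 (SE 0.05, adjusted p = 0.0177) with T0901317. The call with GW3965 was at the edge of the threshold and was lost without any 1 of the 4 DMSO libraries or without replicate 1, 3 or 4 of GW3965 (log2 fold changes of 0.21 to 0.26, adjusted p = 0.0154 to 0.0521), and with the replicate number as a block (adjusted p = 0.0217).

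KLF2, best known from blood vessels and lymphocytes, was measured by 33 to 115 reads a library and passed in no comparison with DMSO by edgeR. Its level was 1.41, 1.89, 1.49 and 1.75 CPM with DMSO and 3.01, 3.15, 2.56 and 1.701 CPM with rosiglitazone at 48 h, which overlapped, with a log2 fold change of 0.66 (SE 0.21, adjusted p = 0.0186) in edgeR and of 0.67 (adjusted p = 0.00854) in DESeq2. The 95% interval of its change at 48 h was -0.50 to 0.43 with GW3965 and -0.39 to 0.53 with T0901317. Changes within these intervals were not excluded, and a larger one could still miss the threshold in edgeR, as with rosiglitazone. At 24 h 1 GW3965 library, at 0.722 CPM, stood apart from the others of its group, at 1.95 to 2.03 CPM.

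KLF15, which is induced by glucocorticoids and fasting in other tissues, fell with rosiglitazone. With DMSO it was 2.18, 3.26, 3.87 and 2.58 CPM at 24 h and 9.87, 9.89, 8.84 and 9.04 CPM at 48 h. With rosiglitazone it was 1.38, 1.82, 1.83 and 2.11 CPM at 24 h and 4.603, 3.66, 2.18 and 3.34 CPM at 48 h, below all DMSO libraries of the same time point. The log2 fold change was -0.75 (SE 0.18, adjusted p = 0.00558) at 24 h and -1.47 (SE 0.16, adjusted p = 6.1e-07) at 48 h, where the fitted level with DMSO was 2.76-fold that with rosiglitazone. At 24 h the call was lost without replicate 2 or 3 of DMSO or replicate 1, 2 or 3 of rosiglitazone (log2 fold changes of -0.76 to -0.58, adjusted p = 0.013 to 0.0324). With GW3965 at 48 h KLF15 was 7.11, 5.91, 7.999 and 6.32 CPM, all below DMSO, with a log2 fold change of -0.46 (SE 0.15, adjusted p = 0.0147) that missed the threshold in edgeR. It passed by DESeq2 (-0.45, adjusted p = 0.00729) and in edgeR with only both groups compared (-0.46, adjusted p = 0.000876). With T0901317 at 48 h it was 9.01, 7.71, 7.22 and 9.09 CPM, with -0.19 (SE 0.15, adjusted p = 0.3303).

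Between 24 and 48 h of DMSO alone, 8 members rose, beside 19.7% of all genes, and none fell, beside 18.9%. The members' median log2 change was 1.41, beside 0 for all genes. The rises were 2.11 for KLF10, 2.02 for KLF9, 1.80 for KLF4, 1.66 for KLF15, 1.48 for KLF6, 1.35 for KLF3, 1.01 for KLF5 and 0.56 for KLF13. In these 8 members each DMSO library of 48 h lay above each of 24 h, but how often this held over all genes was not counted. KLF2 (0.05 (SE 0.25, adjusted p = 0.886)) and KLF11 (0.20 (SE 0.08, adjusted p = 0.0433)) did not pass. Hours of treatment and any difference in handling between the tables of both time points cannot be told apart.

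Within the agonists the same comparison of time points, which was added after the data had been seen, gave fewer rises with the LXR agonists. With GW3965, 2 members rose (KLF6 by 0.42 and KLF15 by 1.23), beside 16.2% of all genes, and 1 fell (KLF11 by a log2 change of -0.38), beside 15.2%. The median over the 10 members was 0.04, beside 0.01 for all genes. With T0901317, 3 members rose (KLF3 by 0.32, KLF6 by 0.55 and KLF15 by 1.39), beside 15.8% of all genes, and 2 fell (KLF10 with -0.33 and KLF11 with -0.28), beside 16.3%. With rosiglitazone, 9 members rose, all but KLF2, beside 22.7% of all genes, and none fell, beside 20.9%, with a median of 1.41.

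**Figure D3:**
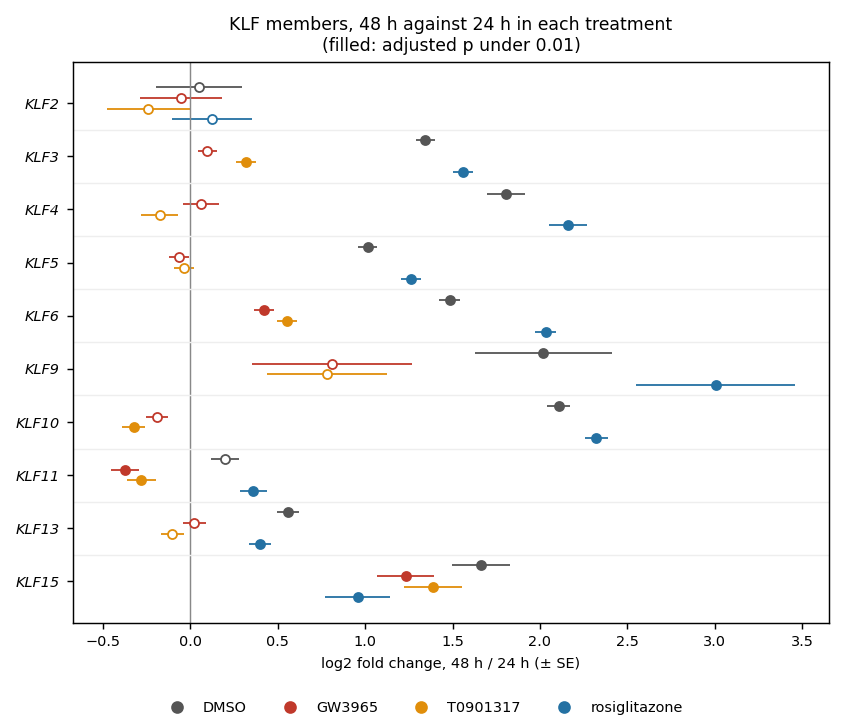
Log2 fold change of each member between 24 and 48 h within DMSO (grey), GW3965 (red), T0901317 (orange) and rosiglitazone (blue), with ± SE of the fit of all 32 libraries. Filled points passed an adjusted p of 0.01. KLF10 lies at 2.11 with DMSO and 2.32 with rosiglitazone, and at -0.19 with GW3965 and -0.33 with T0901317.

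Whether an agonist acted differently at the later hour was tested by the agonist-by-time interaction over all 32 libraries and 23140 genes. For GW3965, 7 members had a lower response at 48 h, beside 11.7% of all genes, and none a higher one, beside 9.96%. They were KLF10 (-2.30 (SE 0.09, adjusted p = 9.8e-19)), KLF4 (-1.74 (SE 0.15, adjusted p = 9.38e-11)), KLF3 (-1.25 (SE 0.08, adjusted p = 1.3e-13)), KLF5 (-1.08 (SE 0.08, adjusted p = 3.18e-12)), KLF6 (-1.06 (SE 0.08, adjusted p = 1.03e-11)), KLF11 (-0.57 (SE 0.11, adjusted p = 0.000193)) and KLF13 (-0.54 (SE 0.09, adjusted p = 2.69e-05)). For T0901317, 7 members had a lower response, beside 9.95% of all genes, and none a higher one, beside 7.49%. Among them KLF10 differed by -2.43 (SE 0.09, adjusted p = 2.42e-19) and KLF4 by -1.98 (SE 0.15, adjusted p = 7.65e-12), followed by KLF5, KLF3, KLF6, KLF13 and KLF11 with differences of -1.05 to -0.48. KLF9 did not pass, with -1.21 (SE 0.62, adjusted p = 0.145) for GW3965 and -1.24 (SE 0.53, adjusted p = 0.08099) for T0901317. For rosiglitazone 1 member, KLF6, differed, with a higher response at 48 h (0.55 (SE 0.08, adjusted p = 6.9e-05)), beside 1.38% of all genes, and none was lower, beside 1.06%. Without replicate 1 of rosiglitazone at 48 h KLF5 passed too, which made 2 members.

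Agonists were also compared directly. At 24 h, GW3965 and T0901317 differed in none of the members by edgeR, beside 0.193% of all genes higher with GW3965 and 0.597% lower. DESeq2 called 1 (KLF4), and 3 (KLF4, KLF9 and KLF11) had an unadjusted p under 0.05 in edgeR. The low-count filter had kept KLF9 through its T0901317 libraries, so its value is a description. The share of all genes at this unadjusted level was not counted. The 95% interval of the log2 difference was -0.13 to 0.17 for KLF10, -0.09 to 0.10 for KLF5 and -0.11 to 0.12 for KLF6. At 48 h, KLF4 was higher with GW3965, beside 5.03% of all genes, and KLF9 lower, beside 3.32%. The interval at 48 h was 0.02 to 0.29 for KLF10, -0.17 to 0.13 for KLF5, -0.27 to 0.01 for KLF6 and -0.12 to 0.14 for KLF13, and for KLF3, which missed the threshold at an adjusted p of 0.0105 in edgeR, it was -0.39 to -0.11.

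Rosiglitazone against GW3965 at 24 h gave 4 lower members, KLF3, KLF5, KLF6 and KLF15, beside 6.09% of all genes, and none higher, beside 4.6%. KLF6 differed by -0.53 (SE 0.05, adjusted p = 6.7e-07) and KLF15 by -0.72 (SE 0.18, adjusted p = 0.00797). At 48 h 9 members were higher with rosiglitazone than with GW3965, beside 22.4% of all genes, and KLF15 was lower by a log2 difference of -1.004 (SE 0.16, adjusted p = 2.1e-05), beside 22.6% of all genes. The differences at 48 h ran from 0.29 for KLF13 to 2.44 for KLF10, with 1.90 for KLF4 and 1.71 for KLF9. The libraries did not overlap in 8 of the 9 higher members, the exception being KLF2, and in KLF15. For all genes such separation was not counted.

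Ordered by mean level, 6 of the 8 groups of KLF10 lay between 25.3 and 32.2 CPM, from T0901317 48 h to GW3965 24 h, and neighbours in that order overlapped, while DMSO 48 h and rosiglitazone 48 h stood apart from these and from each other. KLF4 was lowest with DMSO 24 h (21.2 ± 2.45 CPM) and highest with rosiglitazone 48 h (157 ± 30.7 CPM, SD, n = 4), and groups 2 and 3 (T0901317 at 48 and 24 h) and groups 4 to 6 (rosiglitazone 24 h, GW3965 24 h and GW3965 48 h) overlapped their neighbours. KLF3 was lowest with rosiglitazone 24 h, and its next 5 groups, DMSO 24 h and both LXR agonists at both times, overlapped in sequence below rosiglitazone 48 h and DMSO 48 h. KLF5 lay between 344 and 430 CPM in 6 groups, and at 764 and 826 CPM with DMSO and rosiglitazone at 48 h, which overlapped each other. KLF6 rose from rosiglitazone 24 h (74.1 CPM) over DMSO 24 h and the LXR agonists of 24 h, then of 48 h, to DMSO 48 h and rosiglitazone 48 h (303 CPM), with overlap only between both LXR agonists at the same hour. KLF15 was lowest with rosiglitazone 24 h (1.78 CPM) and highest with DMSO 48 h (9.41 CPM), and only GW3965 24 h and GW3965 48 h stood clear of the group below them. KLF2 groups all overlapped their neighbours, from 1.58 to 2.6 CPM. In KLF9 (0.116 to 1.17 CPM) only T0901317 24 h stood clear of the group below, and in KLF11 (6.91 to 15.9 CPM) only rosiglitazone 48 h. In KLF13 (112.8 to 166 CPM) rosiglitazone 24 h and rosiglitazone 48 h were each clear of the group below them.

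The genes outside the KLF family whose 8 group means followed those of a member most closely were found by Pearson's r over the means of log2 CPM, among 14297 genes, as a description. The 8 points share libraries and the DMSO rise between time points. For KLF10 they were RPRD1B (r = 0.995), which binds RNA polymerase II, JUNB (0.994), an AP-1 subunit, and CSRNP1 (0.994). JUNB ranged over 1.75 and CSRNP1 over 3.08 in mean log2 CPM, RPRD1B over 0.47 and KLF10 over 2.61. For KLF4 they were METRNL (0.991), the glutamine transporter gene SLC1A5 (0.991) and PDLIM7 (0.991), and for KLF9 AC103810.1 (0.963), ALS2CL (0.962) and BBX (0.956).

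Other genes of the family and of KLF function were followed in 5 lists. Of 16 other KLF and SP genes, 9 could be tested at each time point. KLF1, KLF7, KLF14, KLF17, SP7, SP8 and SP9 had too few reads, with at most 32 in any library. None of the 9 passed at 24 h with either LXR agonist, beside 1.86% of all genes higher and 0.868% lower with GW3965. With T0901317 these shares were 1.33% and 0.119%. At 48 h with GW3965 2 rose and 5 fell, beside 16.1% and 17.5% of all genes, with a median of -0.29 beside 0 for all genes, led by SP5, a Wnt target (1.05, SE 0.13, adjusted p = 2.74e-06), and by SP3 (-0.59, SE 0.06, adjusted p = 9.22e-08). With rosiglitazone at 48 h 3 rose and 4 fell, beside 12.3% and 13.1% of all genes, led by KLF16 (0.57, SE 0.10, adjusted p = 0.000193) and SP5 (-1.75, SE 0.16, adjusted p = 4.97e-08), with a median of -0.33. T0901317 gave 1 higher and 3 lower at 48 h, beside 14% and 16.1% of all genes.

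Of 12 KLF corepressors and coactivators, none passed at 24 h with an LXR agonist and 1 rose with rosiglitazone, beside 5.81% of all genes. At that time 1.86% of all genes rose and 0.868% fell with GW3965, and 1.33% rose and 0.119% fell with T0901317. At 48 h 2 rose and 5 fell with GW3965, beside 16.1% and 17.5% of all genes, with the acetyltransferase genes KAT2A (0.31, SE 0.07, adjusted p = 0.00072) and CREBBP (-0.75, SE 0.07, adjusted p = 3.25e-08) at the ends. With T0901317 1 rose and 4 fell (14% and 16.1% of all genes), and with rosiglitazone 4 rose and 1 fell (12.3% and 13.1% of all genes), led by SIN3B (0.48) and KAT2B (-0.95). Medians were -0.04, -0.12 and 0.12, near those of all genes. Of 14 tested regulators of KLF proteins and genes, 8 fell with GW3965 and 6 with T0901317 at 48 h (17.5% and 16.1% of all genes) and none rose (16.1% and 14% of all genes), with medians of -0.37 and -0.31. The largest fall with GW3965 was that of EGR1, an immediate early zinc finger gene (-2.90, SE 0.19, adjusted p = 4.79e-10). With rosiglitazone 3 rose (12.3% of all genes), led by PRMT5 (0.47), and 1 fell (13.1% of all genes), WWP1, a ubiquitin ligase of KLF proteins (-0.62). In DMSO cells 8 of these 14 rose between 24 and 48 h and none fell, beside 19.7% and 18.9% of all genes.

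Of 17 tested genes described as KLF4 or KLF5 targets in epithelium, 8 rose and 3 fell with rosiglitazone at 24 h, where 5.81% and 6.52% of all genes did. At 48 h 7 rose and 2 fell, beside 12.3% and 13.1% of all genes, and the medians were 0.29 and 0.28. KRT20, a keratin of differentiated colonocytes, led the rises at 48 h (1.75, SE 0.12, adjusted p = 1.71e-09) and CCND1, cyclin D1, was the lowest (-0.54, SE 0.07, adjusted p = 4.11e-06). With GW3965 at 24 h 2 rose and 1 fell, beside 1.86% and 0.868% of all genes, with a median of 0.04. With T0901317 at 24 h 2 rose and none fell, beside 1.33% and 0.119% of all genes, with a median of -0.02. A link to the levels of KLF4 or KLF5 was not tested. With GW3965 at 48 h, where 16.1% of all genes rose and 17.5% fell, 4 rose, led by CCNE1, cyclin E1 (0.60, SE 0.14, adjusted p = 0.00118), and 8 fell, led by the laminin gene LAMA3 (-1.37, SE 0.19, adjusted p = 8.44e-06), with a median of -0.23. With T0901317 2 rose and 7 fell, beside 14% and 16.1% of all genes.

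KLF9, KLF10 and KLF15 are known as clock-linked genes, so 18 tested circadian clock genes were followed too. With GW3965 at 48 h 2 rose and 9 fell, beside 16.1% and 17.5% of all genes, with a median of -0.41. With T0901317 2 rose and 8 fell, beside 14% and 16.1% of all genes, with a median of -0.46. HLF fell most with GW3965 (-2.05, SE 0.53, adjusted p = 0.00383). With rosiglitazone, where 12.3% of all genes rose and 13.1% fell, 5 rose, led by NPAS2 (1.54, SE 0.15, adjusted p = 2.2e-07), and 2 fell, led by DBP (-0.87, SE 0.14, adjusted p = 8.38e-05), with a median of 0.02. In DMSO cells 9 of the 18 rose between 24 and 48 h and 1 fell, beside 19.7% and 18.9% of all genes, with a median of 0.56. At 24 h 2 rose with GW3965 (1.86% of all genes), 1 with T0901317 (1.33%) and 3 with rosiglitazone (5.81%). With rosiglitazone 2 fell, beside 6.52% of all genes.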

How the data were processed

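RNA-seq of HT29 cells was used (8 groups, 4 libraries each). The authors fragmented cDNA of poly(A)-selected RNA with Nextera transposases and deposited raw counts for each Ensembl gene, 1 table for each time point. Counts labelled ROSA were read as rosiglitazone, the only agent left without a label of its own name. The submitters' processing notes name TopHat, Cufflinks and hg19. The counting program, with its strand setting, was not given in the sources used here, so overlapping antisense genes cannot be told apart. Binding and histone peak files of the series were not used here.

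For each hour the 16 libraries entered 1 fit of edgeR 4.0.16 under R 4.3.3 (filterByExpr, TMM, quasi-likelihood test), and all 32 libraries entered 1 fit for comparisons across time. A gene passed at an adjusted p under 0.01. SE is the absolute log2 fold change divided by the square root of F, and 95% intervals used 12 residual degrees of freedom within a time point. CPM used TMM factors of all 32 libraries. The tests were tried on simulated counts first. The count pairs of libraries in a group differed by more than sampling noise (chi-square per gene of at least 3.66). Total counts limit the precision of KLF2 and KLF9. The files give no transcript lengths, so levels were not compared between genes.

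All members were named. From each of the 5 lists, the largest riser and the largest faller that passed with GW3965 and rosiglitazone at 48 h were named, and for the 3 members of widest range the 3 genes most like them whose average log2 CPM was 1 or more. Of these, 1 list gene is not reported here. Members and lists were chosen with earlier results of these data known. Alternatives were DESeq2 1.42.0, other scalings, no filter, fold cutoffs, the replicate number as a block, only the groups compared, and leaving out each library. Motifs were counted with Python 3.11.15 and plots drawn with matplotlib 3.10.9.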

Additional observations from a re-analysis of the deposited data

Results flagged for a closer look

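In 3 of 80 groups of 4 libraries, 1 library stood apart from the others by Dixon's criterion, which chance meets in about 1 group in 20. KLF2 was 0.722 CPM in replicate 1 of GW3965 at 24 h, beside 1.95 to 2.03 CPM in the others. KLF6 was 266 CPM in replicate 1 of rosiglitazone at 48 h, beside 314 to 317 CPM. KLF10 was 30.5 CPM in replicate 1 of DMSO at 24 h, beside 27.9 to 28.2 CPM.

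The response to an agonist differed between 48 and 24 h, by the interaction test in edgeR, in 15 of 30 member and agonist pairs. With GW3965 the log2 difference was -1.25 for KLF3, -1.74 for KLF4, -1.08 for KLF5, -1.06 for KLF6, -2.30 for KLF10, -0.57 for KLF11 and -0.54 for KLF13. With T0901317 it was -1.03 for KLF3, -1.98 for KLF4, -1.05 for KLF5, -0.93 for KLF6, -2.43 for KLF10, -0.48 for KLF11 and -0.66 for KLF13. With rosiglitazone it was 0.55 for KLF6. The DMSO libraries enter all of these values.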

How the results depend on the processing

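The 28 fold changes of members that passed against DMSO were recomputed under each alternative except the fold cutoffs and glmTreat. Those settings removed further calls and are given below as counts of members. None changed direction. Of the values obtained, 365 stayed past the threshold and 27 did not, and all 27 belonged to KLF6 or KLF10 with rosiglitazone at 48 h, KLF6 with GW3965 at 24 h, KLF15 with rosiglitazone at 24 h or KLF11 with GW3965 at 48 h. Directions of members that did not pass changed with library size scaling for KLF3 with GW3965 at 24 h (-0.006), KLF13 with rosiglitazone at 24 h (-0.026) and KLF5 with rosiglitazone at 48 h (-0.09). The cause was not tested.

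Counts of members moved as follows. Here and for libraries left out, only counts that changed by more than 1.5-fold, or to or from 0, are listed, so smaller moves are missing. With GW3965 at 24 h the 2 higher members became 1 with the 1.5-fold cutoff, library size scaling, no low-count filter, the replicate block or only the groups compared, and 0 with the 2-fold cutoff or glmTreat against 1.5-fold. With T0901317 at 24 h the 1 higher member became 0 with both cutoffs and glmTreat and 3 with DESeq2. With rosiglitazone at 24 h the 2 higher and 3 lower members became 1 and 1 with the 1.5-fold cutoff and 0 and 0 with the 2-fold cutoff and glmTreat. At 48 h the 8 lower members with GW3965 became 3 with the 2-fold cutoff and 5 with glmTreat, and the 7 with T0901317 became 2 and 4. With rosiglitazone at 48 h the 4 higher members became 1 with the 2-fold cutoff, 2 with the 1.5-fold cutoff, 1 with glmTreat and 2 with library size scaling, with which the 1 lower member became 3. GW3965 against T0901317 at 24 h, with 0 members, gave 1 with DESeq2, library size scaling or no filter. Cutoffs remove members by construction.

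Leaving out 1 library gave 1 to 2 higher members with GW3965 at 24 h, 0 to 1 between the LXR agonists at 24 h and 1 to 2 for the rosiglitazone response between time points. It turned the sign of values near 0 that did not pass, with ranges of -0.025 to 0.335 (KLF2) and -0.156 to 0.128 (KLF15) for GW3965 at 24 h, -0.041 to 0.243 (KLF15) for T0901317 at 24 h, and -0.145 to 0.14 (KLF2, GW3965) and -0.025 to 0.151 (KLF2, T0901317) at 48 h. Same-numbered libraries did not consistently deviate together (correlations of -0.39 to 0.31), and 1 of 4 in each comparison correlated best with its own number. Whether same-numbered samples were set up together cannot be told from these correlations. The replicate block took the count with GW3965 at 24 h from 2 to 1 and moved no other count by as large a factor. For 3 member fold changes an alternative gave no adjusted p. They include KLF9 with GW3965 at 24 h when only the groups compared were in the fit. The few reads of KLF9 and KLF2 limit what could be seen for them.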
